A study of Mus musculus with 6 samples.

Results

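The NRF2 pathway and the redox enzymes around it were followed in macrophages with and without the fatty-acid-binding protein E-FABP. The set held 32 genes chosen by name. A gene was counted as measured if at least 1 probe set of the array was annotated to it and to no other gene, which left 28 of the 32 genes, with 62 probe sets, out of 18193 genes and 45037 probe sets in all. Ftl1 and Prdx1 had only probe sets shared with other annotated genes, and Prdx6 and G6pdx had no probe set annotated to them here, so these 4 were not analysed here. Each gene was read from its brightest probe set (by the mean of the 6 arrays), and the other 34 probe sets, which belong to 21 of the genes, served as a check.

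Each sample was a culture of bone marrow macrophages from C57BL/6 mice of 6 to 8 weeks, grown for 7 days with 20 ng/ml of the growth factor GM-CSF. There were 3 arrays from E-FABP knockout mice and 3 from wild-type mice, and all 6 cultures had shared their medium for 18 h with an insert holding E0771, a breast cancer line of the mouse. No culture without tumour cells was analysed here, so the comparison speaks of genotype among tumour-exposed cells. The labels call the arrays of a genotype biological replicates without naming the animals, and they do not give the substrain of either genotype or say which cells lack the gene. If the arrays do not stem from separate animals, p-values measure only the spread between these samples, which may be technical.

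NRF2, encoded by Nfe2l2, is a transcription factor that is held in the cytosol and sent for degradation by its partner KEAP1. Oxidants and electrophiles modify KEAP1, NRF2 then gathers in the nucleus, pairs with a small Maf protein and binds antioxidant response elements. Its targets make glutathione, keep thioredoxin reduced, supply NADPH, break down haem and store iron. In macrophages, which produce superoxide themselves, these genes guard against self-inflicted oxidation and temper inflammatory gene expression.

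The antioxidant response element is commonly read as the core TGACNNNGC, and promoter windows of the members were searched for it on both strands. The windows, from RefSeq on GRCm38.p6, run from 250 bases before to 50 bases after an annotated start. Of the 28 genes, 23 had a window, and 9 of these 23 (39.1%) held the core in at least 1 window, against 14.0% of the 27025 genes of the table. Counted by window, 9 of the 34 windows of members held it, against 4071 of all 32851 (12.4%). Several genes, 8 of the members among them, have more than 1 window, which gives the gene more places to hold the core. The table also holds genes that code for no protein. The 9 were Nfe2l2, Blvra, Srxn1, Gclm, Pgd, Mgst1, Me1, Txnrd1 and Sod1. In Me1 the match overlapped the related AP-1 motif TGACTCA, and in Srxn1 and Pgd it lay after the start. Hmox1, Gclc, Gsr, Slc48a1 and Abcc1 had no window. A match is a string of letters and no evidence of binding, and enhancers outside these windows were not searched.

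Shown here are the 250 bases before the start for the gene of NRF2 itself and for the 3 targets with the widest spread among the wild-type arrays, Nqo1, Txnrd1 and Gclm, written 5′ to 3′ on the strand of the gene, with the core in capitals. They lie at chr2:75704664-75704913 on the minus strand (Nfe2l2), chr3:122245307-122245556 on the plus strand (Gclm), chr10:82858956-82859205 on the plus strand (Txnrd1, the window of its 3 that held the core) and chr8:107403206-107403455 on the minus strand (Nqo1).
Nfe2l2: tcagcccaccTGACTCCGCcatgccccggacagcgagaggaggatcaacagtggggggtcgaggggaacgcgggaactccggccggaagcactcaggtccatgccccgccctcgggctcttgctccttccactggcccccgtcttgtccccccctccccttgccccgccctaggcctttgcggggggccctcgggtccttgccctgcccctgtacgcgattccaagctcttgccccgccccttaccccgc
Gclm: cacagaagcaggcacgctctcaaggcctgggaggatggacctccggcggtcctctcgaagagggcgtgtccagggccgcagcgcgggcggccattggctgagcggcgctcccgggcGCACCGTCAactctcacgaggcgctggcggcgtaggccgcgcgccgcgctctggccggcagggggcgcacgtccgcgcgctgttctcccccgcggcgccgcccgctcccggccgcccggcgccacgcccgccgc
Txnrd1: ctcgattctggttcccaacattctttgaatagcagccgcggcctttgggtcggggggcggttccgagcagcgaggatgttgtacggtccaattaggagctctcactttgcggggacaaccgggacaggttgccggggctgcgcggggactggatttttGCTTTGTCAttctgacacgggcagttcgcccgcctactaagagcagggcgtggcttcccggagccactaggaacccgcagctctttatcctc
Nqo1: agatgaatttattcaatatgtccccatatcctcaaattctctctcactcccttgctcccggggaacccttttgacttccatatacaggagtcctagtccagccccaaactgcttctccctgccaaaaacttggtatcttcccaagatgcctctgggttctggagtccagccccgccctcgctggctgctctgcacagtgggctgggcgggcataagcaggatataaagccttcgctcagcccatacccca
In Nfe2l2 the core stood on the gene's strand at positions -240 to -232 from the start. In Gclm (-134 to -126) and Txnrd1 (-92 to -84) it stood on the opposite strand, so the capitals show its reverse complement. The Nqo1 window held no match.

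Fabp5, which encodes E-FABP, read 8.13, 8.31 and 8.39 (log2 intensity) on the knockout arrays and 14.47, 14.41 and 14.45 on the wild-type arrays, so each array carried its stated genotype. Pearson's r between arrays over all probe sets was 0.9965 to 0.9977 for arrays of the same genotype and 0.9914 to 0.9961 across genotypes. Of 9 measured macrophage markers, all had genotype means above 5.63, the median of all values. The cultures also held signal of other cells, and in RNA from a mixed culture fewer cells of a type and less RNA per cell cannot be told apart. Over all genes, 53.1% had a higher mean in knockout, 4.90% passed a limma adjusted p of 0.05 and 23.4% had an unadjusted p under 0.05. Dendritic cell markers had a higher mean in knockout in 12 of 13 cases, of which Batf3 (0.53) passed limma's threshold. At an unadjusted p under 0.05, 7 of them were higher and 0 lower. Neutrophil markers had a lower mean in 10 of 11 cases, of which 0 passed limma's threshold. At an unadjusted p under 0.05, 8 of the neutrophil markers were lower and 1 was higher. Of 8 fibroblast markers 3 fell, Col1a2 (-1.29), Dcn (-1.10) and Col3a1 (-0.48), and of the 9 macrophage markers Fcgr1 (-1.13) and Mertk (-0.46) fell. At an unadjusted p under 0.05, 6 fibroblast and 2 macrophage markers were lower, and 0 of either list were higher. The linear intensities of the dendritic list summed to between 25459 and 31982 in knockout and between 24669 and 25013 in wild type. The neutrophil list summed to 20315 to 29172 against 29456 to 36642, the fibroblast list to 312 to 340 against 447 to 509, and the macrophage list to 71153 to 77026 against 77035 to 78682. No value in the table is at 0, the lowest being 2.58, and 5 of the 8 fibroblast markers had a knockout mean below 5.63. In the erythroid (5), epithelial (6), mast cell and basophil (6) and lymphoid (4) lists 0 markers passed limma's threshold, with 1 epithelial marker at an unadjusted p under 0.05. The part of these cells in the differences below was not tested.

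The redox genes were abundant in both genotypes and differed little between them. All 28 read above 5.63 on every array, and 22 of the 28 lay above the 90th percentile of genes by level. At a limma adjusted p under 0.05, 0 rose, 0 fell and 28 did not pass, where 4.90% of all 18193 genes passed, 2.85% higher and 2.05% lower. Among the 7992 genes at least as bright as Me1, the dimmest member at 7.03, 8.27% passed, 4.45% higher and 3.82% lower. At an unadjusted p under 0.05, 4 members were higher and 3 lower, 25.0% of the 28, against 23.4% of all genes (15.2% higher, 8.15% lower) and 34.8% of the genes at least as bright (24.5% higher, 10.2% lower). The median difference, given throughout in log2 units as knockout minus wild type, was 0.05 over the members, 0.01 over all genes and 0.07 over the genes at least as bright.

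The intervals set a limit to what these arrays could have missed. The 95% interval of the difference, from limma's moderated SE and taken gene by gene, lay within 0.5 on either side of 0 for 26 of the 28 genes, a bound that stands for 1.41-fold. The exceptions were Sqstm1 and Keap1, with intervals that reached -0.51 and -0.51. Differences ran from -0.32 for Sqstm1 to 0.24 for Cat, and 17 of 28 (60.7%) were above 0, against 66.9% of the genes at least as bright. The 3 knockout values lay above the 3 wild-type values in 9 genes (32.1%) and below them in 6 (21.4%), against 20.7% and 11.2% of all genes (31.9% in either direction). Of the genes at least as bright, 35.6% lay above and 13.0% below, 48.6% in either direction. Some of these separations were very small, as in Gpx1 (0.02) and Fth1 (-0.03), whose replicates lay close together. Of the 34 other probe sets, 30 gave the sign of the one used and 0 passed limma's threshold, with 7 at an unadjusted p under 0.05, those of Gsr, Gstm1, Keap1, Sod1, Sod2, Sqstm1 and Tkt.

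**Figure D1:**
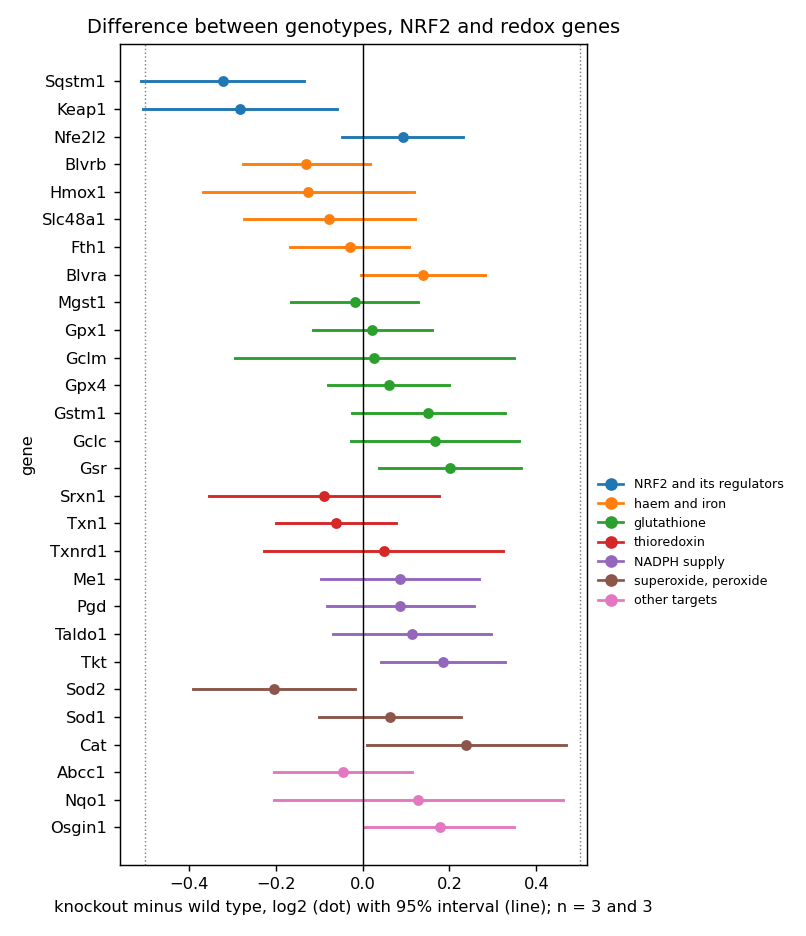
Difference between knockout and wild type (log2, dot) with its 95% interval (line) for the 28 measured genes, coloured by role, 3 arrays per genotype; dotted lines mark 0.5 on either side of 0. Sqstm1 and Keap1 lie farthest to the left at -0.32 and -0.28, and Cat farthest to the right at 0.24.

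Keap1 and Sqstm1, the regulators of NRF2, had the lowest differences of the set, and Nfe2l2 itself lay near 0. Nfe2l2 read 12.53, 12.54 and 12.52 on the knockout arrays and 12.45, 12.46 and 12.40 on the wild-type arrays. The genotypes did not overlap, yet the difference was 0.09 (SE 0.06, n = 3 each), with a limma adjusted p of 0.453. Keap1, the adaptor that marks NRF2 for degradation, read 9.30, 9.19 and 9.39 in knockout and 9.41, 9.76 and 9.54 in wild type. Every knockout value lay below every wild-type value, though the nearest arrays of the genotypes read 9.39 and 9.41, and the difference was -0.28 (SE 0.10, n = 3 each, limma adjusted p = 0.149). Its other probe set gave -0.27. Sqstm1 encodes an autophagy receptor that binds KEAP1 and thereby frees NRF2, and it is itself a target of NRF2. It read 11.63, 11.66 and 11.68 in knockout and 12.07, 11.81 and 12.05 in wild type, a difference of -0.32 (SE 0.08, n = 3 each) with a limma adjusted p of 0.0673. The knockout values were all lower and lay closer together, and the other probe set gave -0.35 (limma adjusted p = 0.0589). Sqstm1 passed under 4 of 15 alternative settings, and its adjusted p ranged from 0.0146 to 0.173 over them. Its difference stayed between -0.41 and -0.27 throughout.

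Among genes of haem and iron handling, 4 of 5 had a lower mean in knockout. Of the genes at least as bright as Me1, 66.9% had a higher mean. Of the 5, 0 passed limma's threshold and 0 had an unadjusted p under 0.05. Hmox1, the inducible haem oxygenase that opens the haem ring, read 11.96, 12.06 and 11.92 in knockout and 12.35, 11.94 and 12.03 in wild type. Its genotypes overlapped, with wild-type replicate 1 standing alone at the top, and the difference was -0.13 (95% interval -0.37 to 0.12), or -0.00 without that array. The 2 biliverdin reductase genes lay apart in opposite directions. Blvra was higher by 0.14 and Blvrb lower (-0.13), each without overlap between genotypes and each with an unadjusted p above 0.05. Slc48a1, which carries haem out of the lysosome, differed by -0.08, and its 2 probe sets disagreed in sign, with 0.15 from the dimmer. Fth1, the ferritin heavy chain that stores iron, read 14.951 to 14.954 in knockout and 14.973 to 14.996 in wild type. Only 1 probe set of the array was brighter, and the values there lie near the top of the scale, whose highest value is 15.01, and whether saturation narrowed its difference of -0.03 was not tested.

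Of the glutathione genes, 6 of 7 had a higher mean in knockout, as did 66.9% of the genes at least as bright as Me1. Of the 7, 0 passed limma's threshold and 1, Gsr, had an unadjusted p under 0.05. Gsr, the reductase that regenerates glutathione, read 10.71, 10.72 and 10.76 in knockout and 10.62, 10.43 and 10.54 in wild type. The genotypes did not overlap, and the difference of 0.20 (SE 0.07, n = 3 each) had a limma adjusted p of 0.160. Its second probe set gave 0.19. The catalytic subunit of glutamate-cysteine ligase, Gclc, differed by 0.17, and the modifier subunit Gclm by 0.03, though the dimmer Gclm probe set gave 0.25. The conjugating enzyme Gstm1 was higher by 0.15 on the probe set used and by 0.14 to 0.17 on the other 3; Gstm family members are similar in sequence, and their probes can share signal. The peroxidases Gpx1 (0.02) and Gpx4 (0.06), the second of which reduces lipid peroxides in membranes, and the microsomal transferase Mgst1 (-0.02) had intervals between -0.16 and 0.20.

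The thioredoxin branch showed no member with an unadjusted p under 0.05. Txn1, the small protein that reduces disulfides, read 13.61 to 13.65 in knockout and 13.67 to 13.70 in wild type, without overlap but only -0.06 apart (95% interval -0.20 to 0.08). Txnrd1, which reduces thioredoxin with NADPH, differed by 0.05 (95% interval -0.23 to 0.32). Srxn1, which restores over-oxidised peroxiredoxins, differed by -0.09 (95% interval -0.35 to 0.18).

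All 4 measured genes grouped under NADPH supply, Tkt, Taldo1, Pgd and Me1, had a higher mean in knockout on the probe sets used. So did 66.9% of the genes at least as bright as Me1. Of the 4, 0 passed limma's threshold and 1, Tkt, had an unadjusted p under 0.05. Tkt, the transketolase of the non-oxidative pentose phosphate pathway, read 13.33, 13.37 and 13.34 in knockout and 13.20, 13.15 and 13.12 in wild type, a clear gap between tight groups. The difference was 0.19 (SE 0.06, n = 3 each, limma adjusted p = 0.140), and the other probe sets gave 0.24 and 0.09. With trend and robust settings Tkt passed (limma adjusted p = 0.0123; 0.0123 to 0.294 over 15 alternatives). Its partner Taldo1, transaldolase, differed by 0.11, with the nearest arrays equal to 2 decimals. Pgd, which makes NADPH in the oxidative arm, and the malic enzyme Me1 each differed by 0.09, with overlapping genotypes. The dimmer Me1 probe set had the other sign, at -0.08.

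Of the enzymes that remove superoxide and peroxide, Sod2 and Cat had differences of opposite sign, each with an unadjusted p under 0.05, and 0 of 3 passed limma's threshold. Sod2, the mitochondrial superoxide dismutase, read 13.35, 13.15 and 13.39 in knockout and 13.58, 13.44 and 13.49 in wild type. All knockout values were lower, and the difference was -0.20 (SE 0.08, n = 3 each, limma adjusted p = 0.207). Its 3 other probe sets gave -0.21, -0.18 and -0.34. Cat, the catalase of peroxisomes, read 12.13, 12.19 and 12.06 in knockout and 12.07, 11.67 and 11.92 in wild type, a difference of 0.24 (SE 0.10, n = 3 each, limma adjusted p = 0.228). The groups overlapped at their edge, and the other probe set gave 0.21. Sod1, the cytosolic dismutase, differed by 0.06. Of the remaining targets, the quinone reductase Nqo1 read 8.73, 8.74 and 8.58 in knockout and 8.81, 8.17 and 8.69 in wild type. That is a difference of 0.13 (95% interval -0.20 to 0.46), with wild-type replicate 2 far below the other 5 arrays. Osgin1, a growth inhibitor induced by oxidative stress, was higher by 0.18 without overlap (limma adjusted p = 0.233), and Abcc1, an exporter of glutathione conjugates, differed by -0.04.

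**Figure D2:**
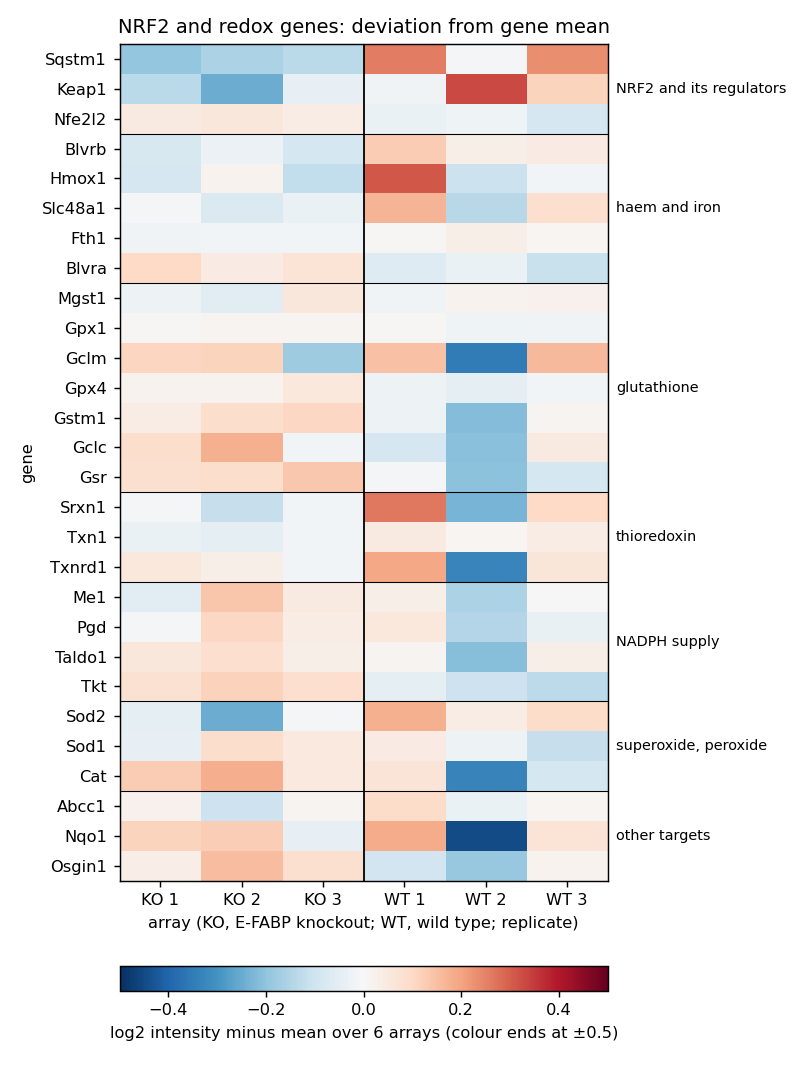
Log2 intensity of each gene minus its mean over the 6 arrays (colour, ending at 0.5 on either side), with arrays in columns (KO, knockout; WT, wild type) and genes in rows grouped by role. Nqo1, Txnrd1, Gclm and Cat are lowest on wild-type replicate 2, while Keap1 is highest there.

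In most of these genes the wild-type arrays were spread more widely than the knockout arrays. The range over the 3 wild-type arrays exceeded that over the 3 knockout arrays in 23 of 28 genes, against 50.7% of the genes at least as bright, and its median was 0.20 in wild type and 0.09 in knockout. Wild-type replicate 2 was the lowest wild-type array in 21 of 28 genes (75.0%), against 45.8% of the genes at least as bright and 38.5% of all genes. In 6 genes the wild-type range exceeded 0.39, the 95th percentile of the genes at least as bright: Nqo1 (0.64), Txnrd1 (0.52), Gclm (0.51), Srxn1 (0.50), Hmox1 (0.42) and Cat (0.40). These genes were singled out after their values were seen, and the pattern is a description of 3 arrays without a test.

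The 6 genes had wild-type replicate 2 as their lowest wild-type array without exception. Txnrd1 read 11.67, 11.14 and 11.53 on wild-type replicates 1, 2 and 3, and 11.53, 11.50 and 11.46 on the knockout arrays. Gclm read 11.17, 10.68 and 11.19 in wild type and 11.13, 11.14 and 10.85 in knockout. Srxn1 read 10.63, 10.13 and 10.46 in wild type and 10.36, 10.25 and 10.35 in knockout. In Txnrd1 and Srxn1 the knockout values thus fell inside the wild-type range, as they did in Gclm. Without wild-type replicate 2 the differences of Nqo1, Gclm and Txnrd1 turned to -0.06, -0.14 and -0.10, that of Srxn1 went from -0.09 to -0.23 and that of Hmox1 from -0.13 to -0.21, while that of Cat went from 0.24 to 0.13. None of the 28 passed limma's threshold without this array, where only 48 of all 18193 genes did. By the unadjusted p under 0.05, 1 was higher and 3 were lower, and the median difference was 0.00. Keap1 ran the other way, with 9.76 on wild-type replicate 2 against 9.41 and 9.54, and its difference was -0.19 without that array.

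Interferon-stimulated genes and the cell type markers were set beside these 6 genes array by array. The interferon genes were a list of 16, of which 14 were measured, added after the data were seen. Their mean deviation from the gene means was 0.86, 1.30 and 0.80 on wild-type replicates 1, 2 and 3, and -0.85, -1.89 and -0.23 on knockout replicates 1, 2 and 3. The 6 redox genes lay at 0.19, -0.30 and 0.05 on the same wild-type arrays and at 0.05, 0.06 and -0.05 on the knockout arrays. Within each genotype the array with the highest interferon mean was thus the one with the lowest mean of the 6 genes. Between genotypes, the interferon mean was lower on every knockout array than on every wild-type array, while the ranges of the 6 genes overlapped. The neutrophil markers averaged 0.23, 0.12 and 0.38 on the wild-type arrays and -0.19, -0.56 and 0.02 on the knockout arrays. They too were lowest among wild type on replicate 2, but among knockout they were highest on replicate 3, where the 6 genes were lowest. On wild-type replicate 2 and knockout replicate 3, dendritic cell markers were lowest of their genotype (-0.20 and -0.01). Macrophage markers were highest of their genotype there (0.16 and -0.02). No other marker list was lowest on both of these arrays, or highest on both. The part of any of these lists in the spread of the redox genes was not tested.

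**Figure D3:**
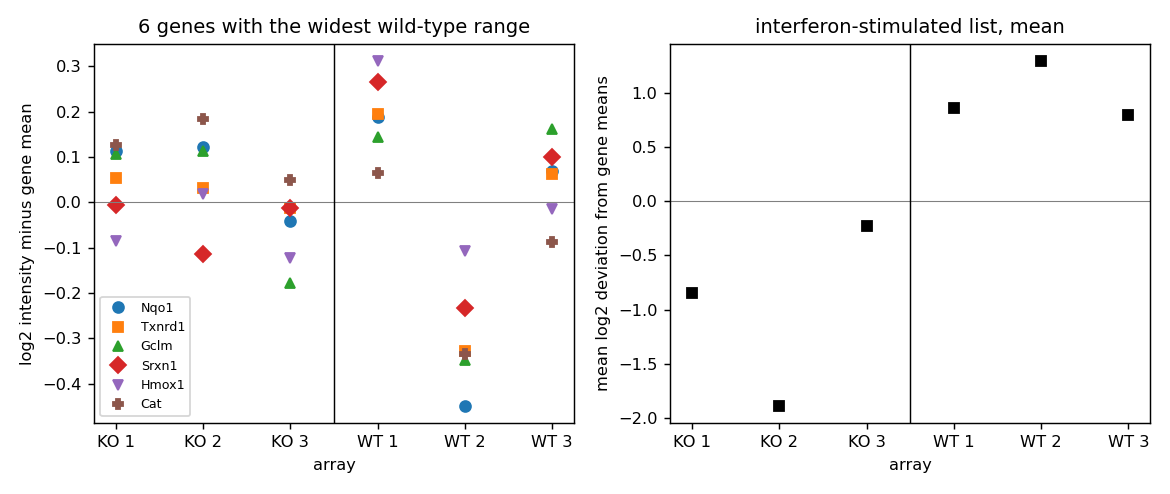
Left, log2 intensity minus the gene mean for the 6 genes with the widest wild-type range, on each array (KO, knockout; WT, wild type). Right, mean deviation of 14 interferon-stimulated genes; wild-type replicate 2 is highest at 1.30 there and lowest of the wild-type arrays for each of the 6 genes.

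Other genes of redox metabolism were read from a wider list of 88, chosen with earlier results of these data known. Its shares below describe the list and are no test of it. Of the 88 genes, 85 were measured. Of these, 6 rose, 2 fell and 77 did not pass at a limma adjusted p under 0.05, which is 9.41% called against 4.90% of all genes (2.85% higher and 2.05% lower) and 8.27% of the genes at least as bright as Me1. At an unadjusted p under 0.05, 20 were higher and 9 lower, 34.1% of the 85. That share was 23.4% over all genes and 34.8% over the genes at least as bright as Me1. The median difference was 0.08, and 64 of 85 means (75.3%) were higher in knockout. The share of higher means was 53.1% over all genes and 66.9% over the genes at least as bright as Me1, a set to which the dimmer genes of the list, such as Gstm5, do not belong. Each of the 8 kept its direction when 1 array was left out, and passed in 0 to 2 of those 6 fits. When arrays were left out singly, 0 rose without replicate 1 of either genotype or without replicate 2 of wild type. Without replicate 2 of knockout 1 rose, without its replicate 3 2 rose, and without replicate 3 of wild type 4 rose. The number that fell was 3 without replicate 3 of knockout and 0 without any other single array. Calls over all 18193 genes dropped as well, from 892 to 17, 179 and 769 without knockout replicates 1, 2 and 3. Without wild-type replicates 1, 2 and 3 they were 177, 48 and 509.

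Among the partners of NRF2, 1 of 9 passed. Mafk, a small Maf protein that pairs with NRF2 on DNA and can also pair with its rival Bach1, read 8.73, 8.58 and 8.86 in knockout and 9.16, 9.29 and 9.15 in wild type. All knockout values were lower, and Mafk fell by 0.47 (SE 0.09, n = 3 each, limma adjusted p = 0.0257; 0.00707 to 0.110 over 15 alternatives). In the glutathione group 2 of 23 rose, the microsomal transferase Mgst2 by 0.40 (SE 0.07, limma adjusted p = 0.0220) and the transferase Gstm5 by 0.34 (SE 0.07, limma adjusted p = 0.0424). In these 3 genes the genotypes did not overlap, as in 31.9% of all genes and 48.6% of the genes at least as bright as Me1. At an unadjusted p under 0.05, 0 genes of the regulator group were higher and 2 lower, Mafk and Bach1 (-0.16). In the glutathione group 7 were higher and 3 lower by that measure. The lower ones were Glrx (-0.46), Slc3a2 (-0.30) and Gpx8 (-0.30).

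In the NADPH group 2 of 10 rose and 9 of 10 had a higher mean. Over all genes 4.90% passed and 53.1% had a higher mean. Among the genes at least as bright as Me1 these shares were 8.27% and 66.9%. Idh1, the cytosolic isocitrate dehydrogenase that makes NADPH, read 12.57, 12.76 and 12.55 in knockout and 12.24, 12.09 and 12.18 in wild type, a rise of 0.46 (SE 0.08, n = 3 each, limma adjusted p = 0.0238). Nnt, the mitochondrial transhydrogenase that makes NADPH from NADH, read 9.85, 9.29 and 9.88 in knockout and 8.37, 8.82 and 9.07 in wild type. It rose by 0.92 (SE 0.20, n = 3 each, limma adjusted p = 0.0392). Its other probe sets gave 0.78 (limma adjusted p = 0.0494) and 0.02. The one at 0.02 had a mean level of 5.35, below 5.63, the median of all values. The C57BL/6J substrain is known to carry a deletion in Nnt, and since the substrain of these mice is not given in the labels, genotype and substrain cannot be told apart here. Leaving out replicates 1 or 3 of knockout, or replicates 1 or 2 of wild type, ended the call of Nnt (limma adjusted p of 0.0851 to 0.128). Over all 15 alternatives it passed in 8, with a limma adjusted p of 0.0293 to 0.182.

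Of 13 haem and iron genes, Tfrc, the transferrin receptor that brings iron into the cell, rose by 0.48 (SE 0.10, limma adjusted p = 0.0425). The mean of its probe sets gave 0.30 (limma adjusted p = 0.120). At an unadjusted p under 0.05, 3 of the 13 were higher, Tfrc among them, and 3 lower. The lower ones were Hmox2 (-0.32), Slc11a2 (-0.28) and Slc11a1 (-0.22). Among 11 detoxification genes the exporter Abcc4 rose by 0.35 (SE 0.08, limma adjusted p = 0.0476) and the exporter Abcc5 fell by 0.38 (SE 0.07, limma adjusted p = 0.0258). In the thioredoxin group 0 of 12 passed limma's threshold, with 2 higher at an unadjusted p under 0.05, the mitochondrial proteins Prdx3 (0.25) and Txnrd2 (0.24), which were singled out after their values were seen. In the superoxide group 0 of 7 passed limma's threshold, with Ccs, the copper chaperone of Sod1, at an unadjusted p under 0.05 (0.24). Of the phagocyte oxidase, which makes superoxide, the membrane subunits Cybb and Cyba differed by -0.06 and 0.00. Its cytosolic subunits Ncf1 and Ncf4 differed by 0.20 and 0.05, and its partner Rac2 by 0.08, each with an unadjusted p above 0.05.

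**Figure D4:**
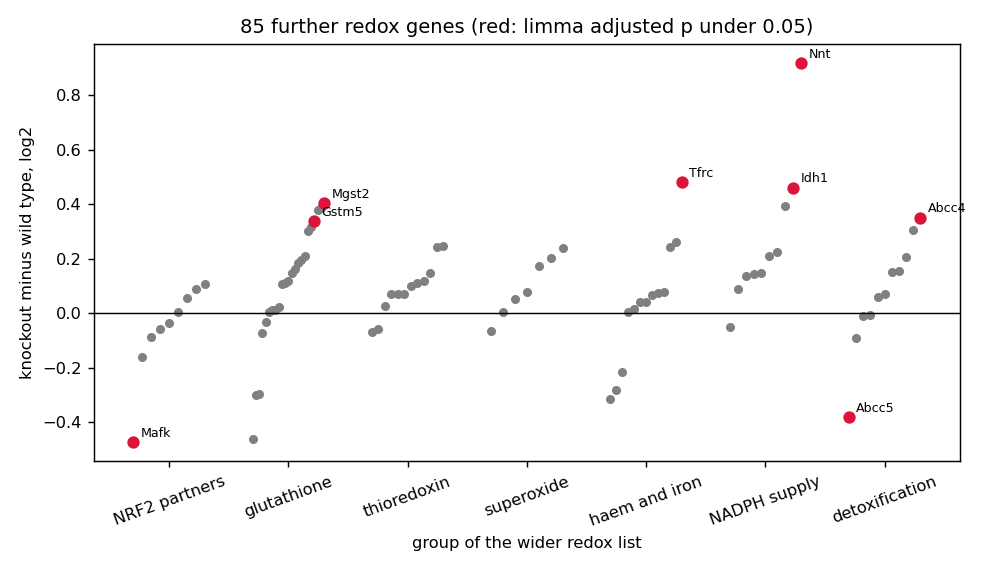
Difference between knockout and wild type (log2) for the 85 measured genes of the wider redox list, by group; each point is 1 gene, and red points passed a limma adjusted p of 0.05. The 8 red points run from Mafk at -0.47 to Nnt at 0.92.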

How the data were processed

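Gene expression was measured on 6 Affymetrix 3' arrays from total RNA, 3 per genotype. The deposited table holds 1 log2 value per probe set and array; the arrays have alike medians (5.60 to 5.64), as values normalized between arrays do, and whether GCRMA 2.30.0 or RMA was used is not settled by the submitters' processing notes, which also name affy 1.36.1 and limma 3.14.4. Such normalization would hide a shift shared by most genes. After 64 control probe sets were left out, 45037 were fitted with limma 3.58.1 in R 4.3.3 (genotype as the sole term, eBayes, prior degrees of freedom 5.04), without a filter on dim ones, with Benjamini-Hochberg adjustment over all of them and a threshold of 0.05. Gene names came from the platform annotation, updated through RefSeq (GRCm38.p6); 34945 probe sets had 1 gene, 932 several and 9160 none. All members are described; every array is given for the regulators, Hmox1, Nqo1 and the 6 members with the smallest p, and up to 8 called genes of the wider list are named. Members and lists were chosen with earlier results of these data known. The fit was checked on simulated arrays. Figures used matplotlib 3.10.9. The number of arrays limits the precision.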

Additional observations from a re-analysis of the deposited data

How the results depend on the processing

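The count of members past limma's threshold was also 0 under quantile normalization, median centring, the floor at the 20th percentile and the replicate block. It was 0 too without _s_at and _x_at probe sets, and without each array in turn (0 to 0). The exceptions were 1 lower (Sqstm1) with above-median probe sets, with array weights and with probe sets averaged per gene, and 1 higher (Tkt) and 1 lower (Sqstm1) with trend and robust settings. In 6 members the sign turned in 10 of 420 alternative fits, none past the threshold. In the wider list, 6 of 85 rose and 2 fell. With above-median probe sets, which kept 75 of these genes, the numbers were 11 and 6. They were 12 and 7 with trend and robust settings, 10 and 6 with the mean of probe sets, and 0 and 0 with the floor. Over all genes, 1522 of 11285 passed with above-median probe sets. Of 18193, 1687 passed with trend and robust settings, 1243 with the mean of probe sets and 31 with the floor. Leaving out 1 array gave 0 to 4 genes of the wider list that rose and 0 to 3 that fell.

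The replicate number as a block gave 0 and 0 in the wider list and 0 members, where 45 of all 18193 genes passed. Same-numbered arrays did not deviate together (Pearson's r over probe sets -0.13 to -0.04), and 0 of 3 knockout arrays correlated best with their own number, so the numbers were not read as pairs. No background level was available here, and 3 arrays per genotype limit what could be seen.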
